A study of Mus musculus with 6 samples.

Results

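Chromosome 6 of the mouse was followed in 5 mesotheliomas by array comparative genomic hybridisation, in which tumour DNA and normal DNA carrying different dyes compete for the same probes and the log2 ratio of their signals measures the copies of a region in the tumour relative to the normal genome. Its members were the probes placed on chromosome 6 by the coordinates (mouse build mm7) that the array file of ARF-128PlusMinus gives, 13994 of the 235390 probes of the denser array design. Of these, 2358 also had a value on a sparser design, to which they were joined by probe name. The chromosome had been chosen by its log2 ratios, since earlier results of the same data showed partial gains on it, so its levels are a description. A test of the means over all autosomes is given near the end, and nothing is read from its calls on this chromosome.

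The 5 tumours carry the numbers ARF-104, ARF-110, ARF-129, ARF-112 and ARF-128 and formed a single group, and no normal mouse or comparison group was measured. The study's description gives the genotype Arf(+/-), which is the loss of 1 copy of the tumour suppressor Arf, for mice numbering 4 where 5 tumours are named, and its title calls the mesotheliomas asbestos-induced. The labels describe primary malignant mesothelioma cells for 4 tumours and give no cell type for ARF-104, and they give no age, strain or share of normal cells for any of them. Tumour DNA carried Cy5 and DNA of the inbred strain C57BL/6J carried Cy3 on all 6 arrays, without a dye swap. Differences between the tumour mice's own strain and C57BL/6J therefore cannot be told apart from changes in the tumour. ARF-104, ARF-112 and ARF-129 were measured on the denser design, ARF-110 on the sparser one and ARF-128 on both, and the denser array of ARF-128, titled ARF-128PlusMinus, is used below unless stated.

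Neighbouring probes on chromosome 6 started a median of 7852 bp apart on the denser design and 26351 bp apart on the sparser one. The noise of single probes, an SD over all autosomes estimated from neighbours, was 0.152 in ARF-110, 0.487 in ARF-129, 0.364 in ARF-104, 0.392 in ARF-112 and 0.776 in ARF-128 (0.430 on its sparser array). The median red signal stood 4.15 to 11.1 times above its local background. The deviations of chromosome 6 probes from their own segments were largely shared between the tumours of the denser design. Their Pearson correlation over probes was 0.88 between ARF-104 and ARF-112, 0.89 between ARF-104 and ARF-129 and 0.90 between ARF-112 and ARF-129, over 13981 to 13988 probes that share an array design and a reference DNA and are not independent. The 2 arrays titled ARF-128 correlated less, at 0.39 over 2357 probes, while the sparser of them correlated at 0.63 with ARF-104, 0.66 with ARF-112 and 0.71 with ARF-129. The labels do not say what sets the array titled ARF-128PlusMinus apart, and that both hold the same tumour is taken from the number in their titles. Values of single genes with few probes carry these shared offsets, so the same values with the offsets removed are given beside several of them. The removal subtracts, for each probe, a fitted multiple of its mean deviation on the other tumours' arrays of the same design, or for the denser array of ARF-128 on the other dense arrays, and it was chosen after the data had been seen.

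**Figure D1:**
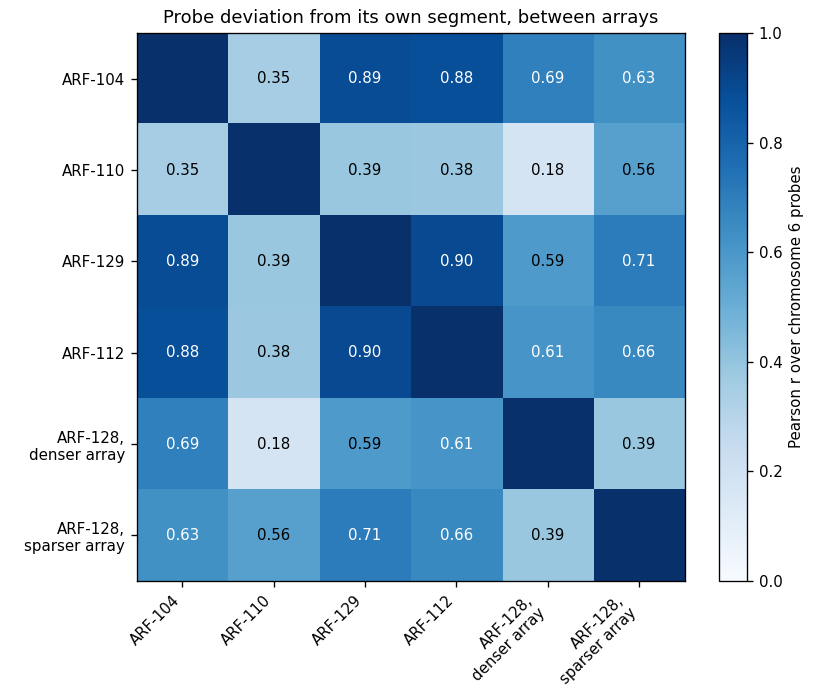
Pearson correlation of chromosome 6 probe deviations (probe log2 ratio minus the mean of its segment) between each pair of the 6 arrays, as a heat map with the value in each cell. ARF-104, ARF-112 and ARF-129 correlated at 0.88 to 0.90 with each other, and the 2 arrays of ARF-128 at 0.39.

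Chromosome 6 carries several genes known from cancer, among them the receptor tyrosine kinase gene Met in its proximal part and the tumour suppressor gene Vhl in its distal part. Near the distal end lies the natural killer gene complex, a run of lectin-like receptor genes through which natural killer cells read other cells. It includes the Klra family, also called Ly49, whose members are near copies of each other and whose number differs between inbred strains. Somatic gains and losses in tumours often take in part of a chromosome arm, and a breakpoint is the place at which the level steps from one value to another.

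The probes next to the main breakpoints show what the array read at the edges, and each is the nearest probe to its side of the edge that carries no gene name in the files. They were copied from the deposited array file, lie on build mm7, and the sources used here give no strand. Each line gives one probe, in lower case, with any run of 10 or more of the same base in capitals. At the start of the gain in ARF-104 stood the probes at chr6:4456233-4456291 (before) and chr6:4510596-4510655 (after), at its inner step those at chr6:57060901-57060960 and chr6:57072397-57072456, and at its end those at chr6:67013693-67013752 and chr6:67068497-67068556. At the proximal edge of the loss in ARF-129 as called stood the probes at chr6:104311244-104311303 and chr6:104331168-104331227, and with probe offsets removed those at chr6:105062895-105062954 and chr6:105085990-105086049.
ARF-104 start, before: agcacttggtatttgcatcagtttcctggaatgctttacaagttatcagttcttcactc
ARF-104 start, after: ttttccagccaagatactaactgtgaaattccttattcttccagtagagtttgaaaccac
ARF-104 inner step, before: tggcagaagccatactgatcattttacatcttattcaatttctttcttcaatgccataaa
ARF-104 inner step, after: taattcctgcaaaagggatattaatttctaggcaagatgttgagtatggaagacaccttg
ARF-104 end, before: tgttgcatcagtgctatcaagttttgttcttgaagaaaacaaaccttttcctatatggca
ARF-104 end, after: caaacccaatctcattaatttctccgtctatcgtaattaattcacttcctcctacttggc
ARF-129 edge as called, before: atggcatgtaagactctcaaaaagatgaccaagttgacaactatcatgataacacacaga
ARF-129 edge as called, after: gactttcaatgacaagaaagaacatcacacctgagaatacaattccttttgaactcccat
ARF-129 edge with offsets removed, before: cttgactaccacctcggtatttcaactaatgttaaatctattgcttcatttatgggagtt
ARF-129 edge with offsets removed, after: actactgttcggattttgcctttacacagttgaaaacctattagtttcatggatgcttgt

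The pair at the inner step shows how far apart the tumours can read a single probe. The proximal probe of that pair, at chr6:57060901-57060960, read 0.43 in ARF-104, 0.22 in ARF-129, -1.56 in ARF-112 and -0.54 in ARF-128. Only the denser design holds it, so ARF-110 has no value there. A breakpoint position therefore rests on the mean of many probes and not on the pair beside it.

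Within the block of Klra genes, a second set shows the spread of single probes there. These are the lowest and second lowest, then the second highest and highest, by mean over ARF-104, ARF-112 and ARF-129 among the probes of the block that carry no gene name. They lie at chr6:130618114-130618173, chr6:130595079-130595138, chr6:130642195-130642254 and chr6:130975690-130975749.
Klra block, lowest: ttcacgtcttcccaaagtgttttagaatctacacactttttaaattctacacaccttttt
Klra block, second lowest: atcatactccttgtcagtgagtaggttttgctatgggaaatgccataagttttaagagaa
Klra block, second highest: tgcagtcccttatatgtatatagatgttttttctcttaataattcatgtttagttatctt
Klra block, highest: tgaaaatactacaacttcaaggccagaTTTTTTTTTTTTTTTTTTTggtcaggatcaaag

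The lowest of these probes read -0.83 in ARF-104, -1.72 in ARF-129, -0.98 in ARF-112 and -0.50 in ARF-128. The highest holds a run of 19 equal bases and read 0.46 in ARF-104, 1.97 in ARF-129, 2.55 in ARF-112 and -1.01 in ARF-128. It was high in 3 of the tumours and low in ARF-128. Runs of 10 or more equal bases occurred in 72 of the 13994 chromosome 6 probes (0.515%) and in 0.466% of all 232626 probes placed on the autosomes, X or Y, and 19 was the greatest length on chromosome 6. Genomic DNA had been cut with AluI and RsaI before labelling, per the labels. Their recognition sequences, AGCT and GTAC, each of which reads the same on both strands, occurred in 3 (0.0214%) and 1 (0.00715%) of the chromosome 6 probes, against 0.0219% and 0.0138% of all probes.

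Over the whole chromosome, the mean log2 ratio was 0.18 in ARF-104, -0.01 in ARF-129, 0.22 in ARF-110, 0.02 in ARF-128 and -0.03 in ARF-112. ARF-104 and ARF-110 lay above the other tumours, whose values fell close to 0. The mean over the 5 tumours was 0.08 ± 0.12 (SD, n = 5), and the sparser array of ARF-128 read 0.08. On the probes that both designs share, the denser array of ARF-128 read -0.10, and the mean over the 5 tumours was 0.02 ± 0.14 (SD). These means hide different shapes: ARF-110 was raised over nearly its whole length, ARF-104 over its proximal part, and ARF-129 was slightly raised proximally and lowered distally.

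**Figure D2:**
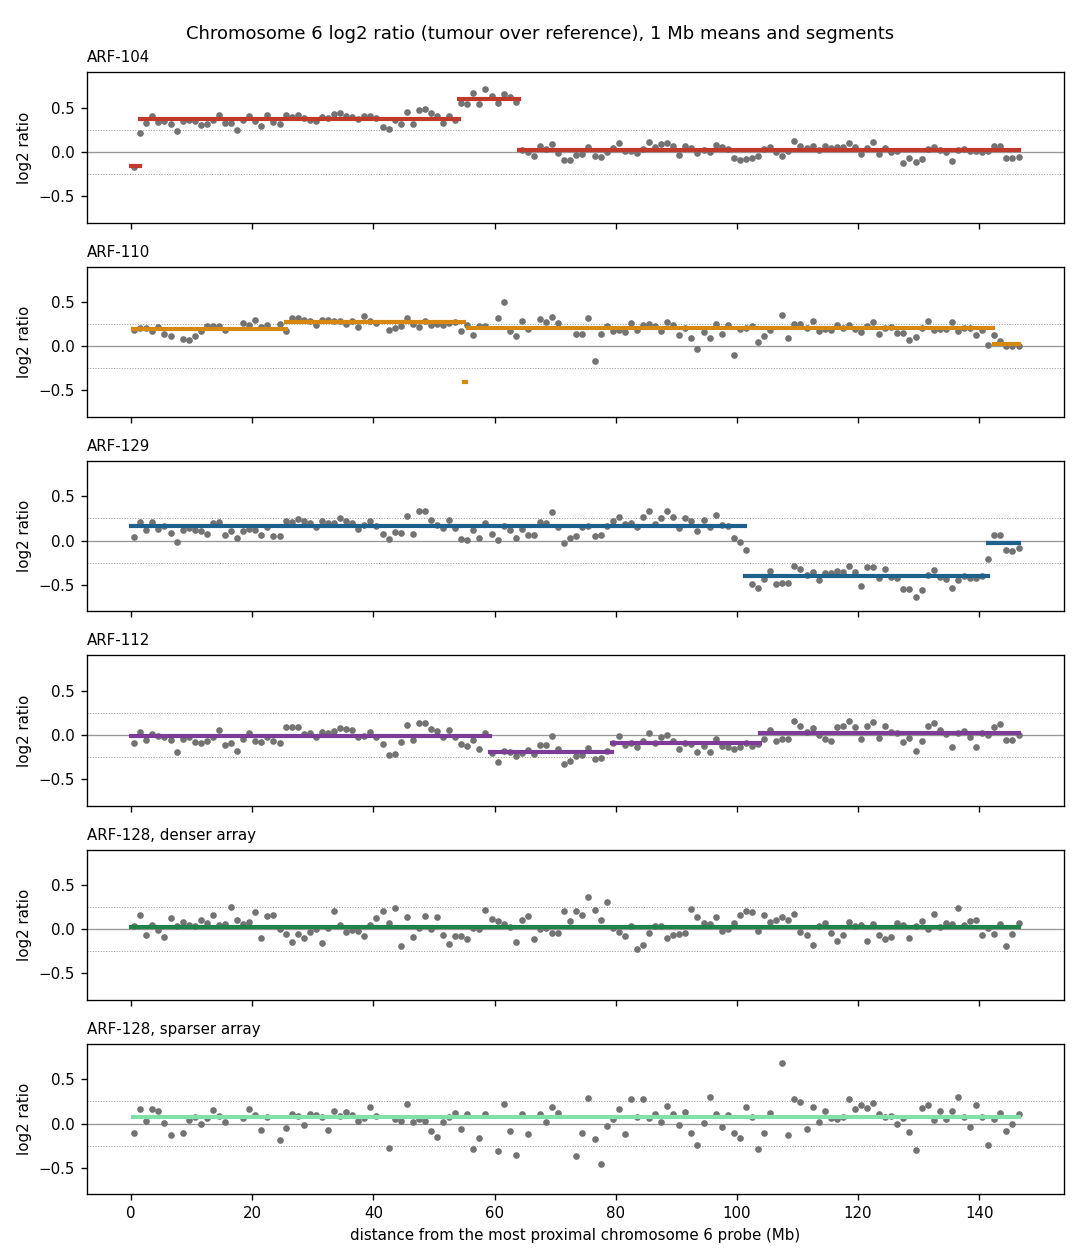
Mean log2 ratio of tumour over reference in bins of 1 Mb along chromosome 6 in each tumour, against the distance in Mb from the most proximal probe, with segment means as lines. ARF-104 steps to 0.37 and 0.60 in its proximal part and returns to 0.02, ARF-110 stays near 0.2 until its distal end, and ARF-129 falls to -0.40 over 40.0 Mb.

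The chromosome was divided into segments of constant level by penalised least squares, and segments with a mean of 0.25 or more were called gained and those of -0.25 or less lost. ARF-104 had 4 segments. The first, chr6:3002100-4487946, read -0.16 over 134 probes. The second, chr6:4493192-57060960, read 0.37 over 5014 probes and 52.6 Mb, a ratio of 130% of the reference. The next, chr6:57072397-67017433, read 0.60 over 828 probes and 9.95 Mb, a ratio of 152%. The last, which ran to the last probe, read 0.02 over 8009 probes and 82.6 Mb. The gain of ARF-104 was thus interstitial at the resolution of the array, with a short stretch before it that was not raised, and its distal part stood above its proximal part. As a yardstick, a single extra copy of a 2-copy region in every cell would give 0.585 on this scale. How many cells carried the gain was not tested.

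The other tumours read differently over the same stretches. Over the longer gained stretch of ARF-104 the means were 0.25 in ARF-110, 0.16 in ARF-129, -0.01 in ARF-112 and 0.02 in ARF-128. Over the higher one, at 0.60, they were 0.21 in ARF-110, 0.08 in ARF-129, -0.16 in ARF-112 and 0.02 in ARF-128. ARF-104 was the highest of the 5 over both, and of the others only ARF-110 and ARF-129 were above 0.05 over both. ARF-110 was read on fewer probes than the rest. On the probes that both designs share, ARF-104 read 0.33 and 0.50 over the longer and the higher stretch, and ARF-129 read 0.10 and -0.07. On those probes only ARF-110 of the others was above 0.05 over both.

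ARF-110 was raised more weakly but over a greater length. Its segments read 0.20 from chr6:3277237-28558269 (256 probes), 0.28 from chr6:28589709-57976862 (604 probes), 0.21 from chr6:58589879-145342354 (1411 probes) and 0.02 from chr6:145399704-149633431 (82 probes). Only the stretch at 0.28, of 29.4 Mb, lay past the threshold, with neighbours at 0.20 and 0.21 just short of it. With probe offsets removed, chr6:58589879-81944328 passed as well, at 0.30 over 212 probes. At a threshold of 0.15, 97.1% of the chromosome 6 bins of ARF-110 were called gained, against 20.4% at 0.25 and 0% at 0.35 or with a penalty of 10 log n. The call of a partial gain in ARF-110 thus turned on the threshold, whereas the level itself hardly moved between settings (0.28 with another background correction for the called stretch). A segment of 5 probes at chr6:57979938-58358244 was also called lost in ARF-110, at -0.40 with a standard error of 0.49. The same probes read -0.65 on the sparser array of ARF-128, and the level in ARF-110 was -0.20 once probe offsets were removed, which is not past the threshold.

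ARF-129 had 3 segments. The proximal one, chr6:3002100-104311303, read 0.16 over 9300 probes and 101.3 Mb. The middle one, chr6:104331168-144380118, read -0.40 over 4104 probes and 40.0 Mb, a ratio of 75.7% of the reference. The last, chr6:144397694-149641811, read -0.02 over 586 probes. The loss was interstitial at this resolution, as the level returned to near 0 before the last probe. Over the same 40.0 Mb the other tumours read 0.20 in ARF-110 and 0.02 in each of ARF-104, ARF-112 and ARF-128, so that the loss was seen in ARF-129 alone. With normexp background correction in place of the processed signals, the same stretch of ARF-129 read -0.07 beside 0.10 for the proximal one, and no bin of the chromosome was called lost. The stretches of ARF-104 kept their calls under that correction, at 0.29 and 0.47.

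ARF-112 and ARF-128 had no called segment before removal of probe offsets. ARF-112 read -0.01 up to position 62205051, -0.20 over chr6:62227859-82332054, -0.09 over chr6:82349388-106877571 and 0.03 from there to the end. ARF-128 had a single segment on both arrays, at 0.02 on the denser (-0.10 over the probes that both designs share) and 0.08 on the sparser one. These counts changed when probe offsets were removed. The removal also lowered the probe noise that scales the penalty, from 0.392 to 0.125 in ARF-112 and from 0.776 to 0.571 in ARF-128. These effects of the removal were not told apart. With probe offsets removed, the denser array of ARF-128 had 9 segments, of which chr6:43451964-47005865 (0.31 over 321 probes) and chr6:73611721-81977451 (0.27 over 509 probes) passed as gained, whereas its sparser array kept a single segment at 0.08. ARF-112 then had 21 segments, of which only 2 of 5 probes each passed, as lost, at -0.43 ± 0.29 and -0.68 ± 0.44 (SE over probes). Among the 21, chr6:104331168-105205309 (-0.16 over 68 probes) began at the called proximal edge of the loss in ARF-129. ARF-104 then had a segment at -0.15 over chr6:104369625-105086049 (63 probes). The removal draws on the other tumours' deviations from their segments, and whether an edge of 1 tumour entered another in this way was not tested.

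In bins of 1 Mb with a value in every tumour, 57 of 137 chromosome 6 bins (41.6%) were called gained in ARF-104, where the call covered 17.1% of all 2179 autosomal bins. In ARF-110 the call covered 28 bins (20.4%), against 13.0% of all bins. No chromosome 6 bin was called gained in ARF-129, ARF-112 or ARF-128, where 20.5%, 8.99% and 7.89% of all bins were. In ARF-129, 39 bins (28.5%) were called lost, against 26.6% of all bins, and no chromosome 6 bin was called lost in ARF-110, ARF-104, ARF-128 or ARF-112, where 3.76%, 1.19%, 1.79% and 15.1% of all bins were. On the sparser array of ARF-128 no chromosome 6 bin was called either, with 7.89% of all bins gained and 1.65% lost. The mean share over the 5 tumours was 12.4% ± 18.6 gained and 5.69% ± 12.7 lost (SD, n = 5). The bins called in ARF-110 were all among those called in ARF-104, as 28 bins were gained in 2 tumours, 29 in 1 and 80 in none.

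The segmentation placed 12 breakpoints on chromosome 6 in the 5 tumours, and they were not equally firm. To see how sharp each was, means over the 2 Mb on either side were compared in every tumour, with standard errors over probes, which are not replicates. At the start of the gain in ARF-104 the level rose from -0.16 to 0.38, a step of 0.54 ± 0.04 (SE), while the steps at the same place were -0.00 in ARF-110, 0.13 in ARF-129, 0.10 in ARF-112 and -0.04 in ARF-128. At its end the level fell from 0.60 to -0.01, while ARF-112 and ARF-129 stepped by 0.01 and 0.00 there, ARF-110 by 0.09 and ARF-128 by 0.18 ± 0.09. Both edges were found within 100 kb under all 8 alternative settings. The inner step from 0.37 to 0.60 was found there under 6 of 8, the exceptions being normexp and the probes shared by both designs.

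The edges of the ARF-104 gain fell near named genes. The first lay between probes at 4487946 and 4493192, both named for Col1a2, which encodes a chain of type I collagen. The inner step lay between Vmn1r8 and Vmn1r11, genes of a large family of pheromone receptors. The end lay between positions 67017433 and 67022130, beside the single probe named for Gadd45a, a gene induced by DNA damage. That Gadd45a probe read 0.88 in ARF-104, 1.29 in ARF-129, 0.50 in ARF-110, 0.29 in ARF-128 and 0.66 in ARF-112, and after removal of probe offsets 0.17, 0.63, 0.30, -0.61 and 0.05 in the same order. Before removal it was above 0 in every tumour, including those without a breakpoint there, and after it ARF-128 was below 0, so which side of the edge Gadd45a lies on in ARF-104 is not settled by this probe.

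The proximal edge of the loss in ARF-129 was less sharp. As called, it lay between 104311303 and 104331168, and the mean over 2 Mb fell there by 0.36 ± 0.05 (SE), against steps of 0.18 ± 0.15 in ARF-110, 0.03 in ARF-128, 0.01 in ARF-112 and 0.00 in ARF-104. In windows of 200 kb, ARF-129 read -0.19, -0.15, -0.14 and -0.20 over the first 0.8 Mb past the called edge and then -0.40, -0.72 and -0.68. With probe offsets removed, the step into the loss lay 0.753 Mb further, between 105062954 and 105085990. On that scale chr6:102486173-105062954 read 0.03 over 180 probes, between a segment at 0.23 and the loss at -0.39. A breakpoint within 100 kb of the called place was found under 4 of 8 alternatives. With a penalty of 3 log n and with normexp, the nearest breakpoint lay 731645 and 692392 bp from it. The called edge and the one with offsets removed lie on either side of Cntn6, a neural cell adhesion gene at chr6:104592221-104959238 with 48 probes. Cntn6 read -0.07 in ARF-104, -0.12 in ARF-129, 0.25 in ARF-110, 0.19 in ARF-128 and -0.09 in ARF-112. Its neighbour Cntn4, of the same family, with 129 probes at chr6:105774950-106761588, read -0.04, -0.50, 0.22, 0.05 and -0.09 in the same order of tumours. Cntn4 was thus low in ARF-129 alone, whereas the Cntn6 value of ARF-129 was close to those of ARF-104 and ARF-112.

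The distal edge of that loss was sharp. Between 144380118 and 144397694 the mean over 2 Mb in ARF-129 rose from -0.41 to 0.05, a step of 0.47 ± 0.05 (SE), while the others stepped by -0.01 in ARF-110, 0.01 in ARF-128, 0.13 in ARF-112 and 0.06 in ARF-104. It was found within 100 kb under 7 of 8 alternatives, the exception being the probes shared by both designs. Sox5, a developmental transcription factor gene with 47 probes whose last probe lies before that edge at 144298288, read 0.01 in ARF-104, -0.43 in ARF-129, 0.11 in ARF-110, -0.01 in ARF-128 and 0.00 in ARF-112.

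The end of the raised stretch in ARF-110, between 145342354 and 145399704, was found under all 7 settings that apply to its array. The mean over 2 Mb fell there by 0.14 ± 0.06 (SE) in ARF-110 and stepped by 0.02 in ARF-104, 0.23 in ARF-129, 0.07 in ARF-112 and -0.02 in ARF-128. This edge of ARF-110 thus lay distal to the edge of the loss in ARF-129, and only the first was a fall.

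Other called steps were small. At 82.3 Mb, where ARF-112 stepped by 0.19, ARF-104 stepped by 0.14 and ARF-129 by 0.16, but ARF-110 by -0.00 and ARF-128 by -0.09 ± 0.08. At 106.9 Mb those 5 stepped by 0.15, 0.12, 0.14, 0.07 and 0.10, all the same way. At 28.6 Mb, where ARF-110 stepped by 0.20 ± 0.10 within Snd1, ARF-112 stepped by 0.15, ARF-129 by 0.16 and ARF-104 by 0.07, while ARF-128 stepped by -0.10. Each of these 3 steps thus went the same way in at least 2 tumours without a called breakpoint there. With probe offsets removed, the one at 28.6 Mb was found within 100 kb of its place, and those at 82.3 and 106.9 Mb were not. The step of ARF-112 at 62.2 Mb was larger in that tumour, at -0.25 ± 0.04, than in ARF-129, ARF-104 and ARF-128, at -0.11, -0.09 and -0.07, and ARF-110 stepped by 0.09 ± 0.17 there.

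**Figure D3:**
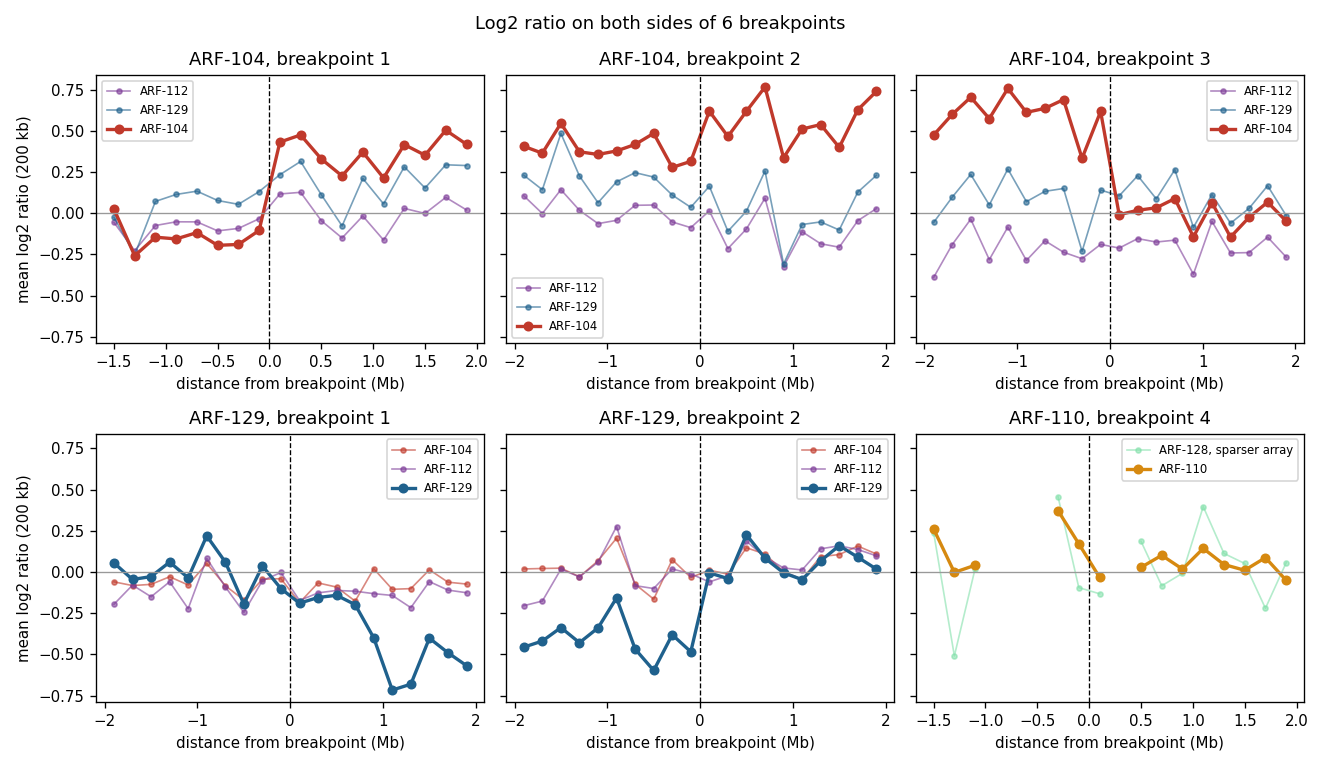
Mean log2 ratio in windows of 200 kb within 2 Mb on either side of 6 breakpoints (3 of ARF-104, 2 of ARF-129, 1 of ARF-110), against distance from the breakpoint in Mb. Lines are drawn for ARF-104, ARF-112 and ARF-129 at the breakpoints of ARF-104 and ARF-129. At that of ARF-110 they are drawn for ARF-110 and the sparser array of ARF-128. The line of ARF-104 rises by 0.54 at the start of its gain, and that of ARF-129 rises by 0.47 at the distal edge of its loss, whereas at the proximal edge of that loss its line reaches -0.72 only past 1 Mb.

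Values of single genes scattered about the segment over them. The SD of gene values about their segment was 0.281 in ARF-104, 0.381 in ARF-129, 0.144 in ARF-110, 0.607 in ARF-128 and 0.314 in ARF-112. After removal of probe offsets it was 0.113, 0.147, 0.114, 0.462 and 0.115 in the same order. Of all 1431 names on chromosome 6 probes, 535 of 1429 with a value lay in a gained segment in ARF-104, where 15.9% of all autosomal names did, 317 of 1142 in ARF-110 (13.8% of all), and 466 of 1431 in a lost segment in ARF-129 (28.2% of all). No chromosome 6 name lay in a lost segment in ARF-110 (2.65% of all names), ARF-104 (0.557%), ARF-128 (1.86%) or ARF-112 (11.3%), or in a gained one in ARF-129 (22.1%), ARF-112 (10.8%) or ARF-128 (8.71%).

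Of 38 genes listed for growth and cancer, 34 were measured. In ARF-104, 11 of them lay in the gain, in ARF-110, 3 of 32 lay in the called stretch, and in ARF-129, 16 lay in the loss. Of all chromosome 6 names with a value, 535 of 1429, 317 of 1142 and 466 of 1431 did so, and nothing is read from the list counts. Met, the receptor for hepatocyte growth factor, at chr6:17432787-17502638 with 11 probes, read 0.47 in ARF-104, 0.23 in ARF-129, 0.23 in ARF-110, -0.15 in ARF-128 and 0.15 in ARF-112. On the sparser array of ARF-128 Met read 0.59, so neither its sign in that tumour nor the tumour with the highest value is settled. Smo, the signal transducer of the Hedgehog pathway, read 0.34, 0.20, 0.25, -0.23 and 0.06 in the same order of tumours. It read 0.27 on the sparser array of ARF-128, so its sign in that tumour is not settled either. Ezh2, a histone methyltransferase of the Polycomb system, read 0.21 in ARF-104, -0.17 in ARF-129, 0.06 in ARF-110, -0.35 in ARF-128 and -0.23 in ARF-112. Ezh2 thus lay below the level of its segment in every tumour, and with probe offsets removed it read 0.46 in ARF-104, 0.08 in ARF-129, 0.22 in ARF-110, -0.06 in ARF-128 and -0.00 in ARF-112.

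In the distal part, Pparg, a nuclear receptor of fat metabolism, read -0.05 in ARF-104, -0.42 in ARF-129, 0.42 in ARF-110, -0.50 in ARF-128 and -0.04 in ARF-112. It was highest in ARF-110 and lowest in ARF-128 and ARF-129. In ARF-128 no segment was called there, and its single-gene values scatter by 0.607, so its low reading lies within that scatter. Etv6, a transcription factor gene with 32 probes, read 0.04 in ARF-104, -0.38 in ARF-129, 0.33 in ARF-110, 0.15 in ARF-128 and 0.10 in ARF-112. Etv6 was likewise highest in ARF-110, and it was below 0 only in ARF-129.

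Some gene values moved far when the shared offsets were taken away. Chd4, the helicase of a chromatin remodelling complex, read -0.46 in ARF-104, -0.93 in ARF-129, 0.21 in ARF-110, -0.43 in ARF-128 and -0.32 in ARF-112. After removal it read -0.09, -0.41, 0.20, 0.12 and 0.13 in the same order, and the value of ARF-129 is close to the level of its segment. Vhl, which targets hypoxia-inducible factors for breakdown and has only 2 probes, read -0.57, -0.88, -0.00, 0.72 and -0.12 in the same order, and -0.29, -0.42, 0.05, 1.22 and 0.36 after removal, so that ARF-112 and ARF-128 moved away from 0. The sparser array of ARF-128 read -0.07 for Vhl and 0.22 for Chd4, against 0.72 and -0.43 on the denser one. Tead4, a transcription factor of the Hippo pathway, read 0.28 in ARF-104, 0.05 in ARF-129, 0.26 in ARF-110, 0.35 in ARF-128 and 0.38 in ARF-112. After removal Tead4 read 0.01, -0.30, 0.24, -0.06 and 0.09.

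Of 8 genes listed for TNF and NF-kB signalling, the pathway that the study's title names, 2 lay in the gain of ARF-104, 2 in the called stretch of ARF-110 and 6 in the loss of ARF-129. Of all chromosome 6 names with a value, 535 of 1429, 317 of 1142 and 466 of 1431 did so. Genes that lie in 1 segment share its call, so nothing about the pathway is read from these counts. Tnfrsf1a, the main receptor for TNF, with 3 probes at chr6:125378352-125388731, read -0.00 in ARF-104, -0.79 in ARF-129, 0.20 in ARF-110, -0.32 in ARF-128 and -0.01 in ARF-112. Ltbr, the receptor for lymphotoxin beta next to it, read -0.08, -0.44, 0.44, -0.75 and 0.12 on 2 probes. The sparser array of ARF-128 read -0.09 for Tnfrsf1a and 0.92 for Ltbr, so the place of ARF-128 among the tumours turned on the array for Ltbr. Irak2, a kinase that carries Toll-like receptor signals to NF-kB, read 0.04 in ARF-104, -0.35 in ARF-129, 0.47 in ARF-110, 0.16 in ARF-128 and 0.02 in ARF-112. Tax1bp1, an adaptor that restrains NF-kB together with A20, lay in the proximal part and read 0.37, -0.08, 0.14, -0.05 and -0.08. The sparser array of ARF-128 read 0.87 for Irak2, above ARF-110, and -0.64 for Tax1bp1. Copy number was measured and not expression, so these values say nothing of the signal itself.

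Very large genes give the steadiest gene values, since each holds many probes on the denser design. Of 16 listed, 14 were measured, with 5 of 14 in the gain of ARF-104, 2 of 13 in the called stretch of ARF-110 and 6 of 14 in the loss of ARF-129, beside the 535 of 1429, 317 of 1142 and 466 of 1431 names of the whole chromosome. Cntnap2, a neurexin-family gene with 284 probes at chr6:45109095-47337352, read 0.31 in ARF-104, 0.06 in ARF-129, 0.20 in ARF-110, 0.11 in ARF-128 and -0.21 in ARF-112. In ARF-112 its value lay below its segment of -0.01, and was -0.13 with offsets removed. Grm7, a glutamate receptor gene with 123 probes, read -0.01 in ARF-104, -0.50 in ARF-129, 0.09 in ARF-110, 0.12 in ARF-128 and -0.05 in ARF-112. The sparser array of ARF-128 read -0.09 for Cntnap2 and -0.12 for Grm7, on the 3 and 4 probes that design holds.

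**Figure D4:**
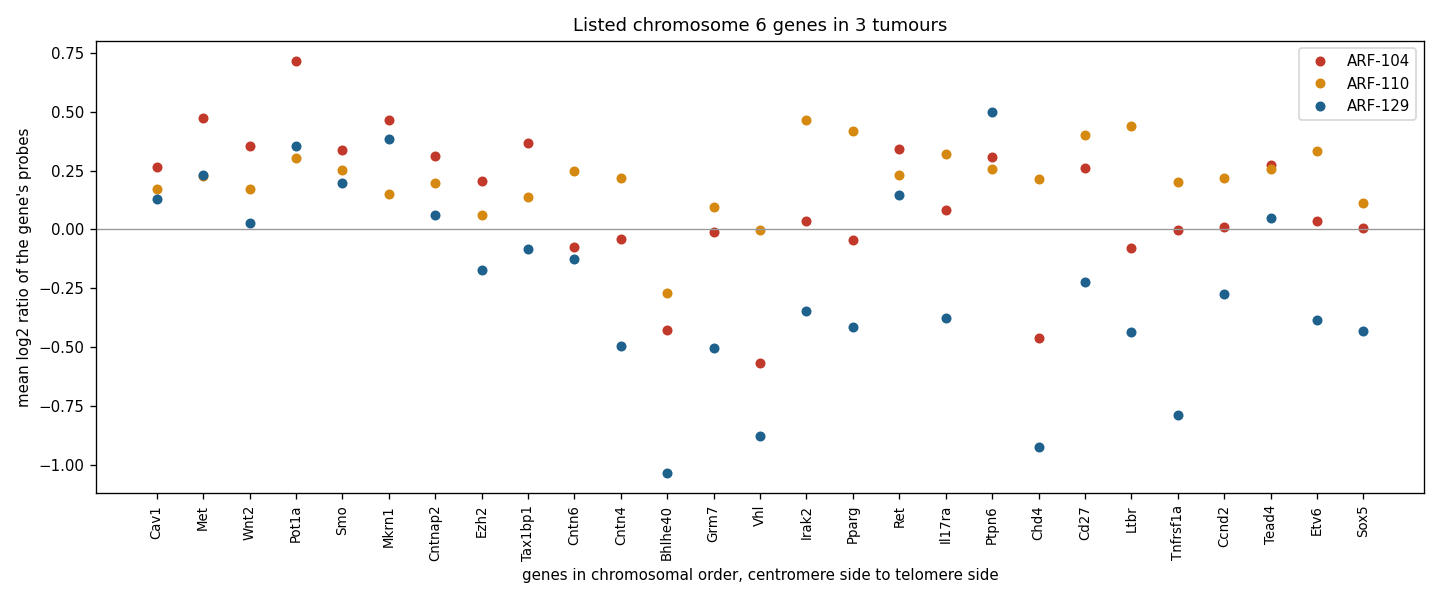
Log2 ratio of chromosome 6 genes taken from the lists for growth and cancer, TNF and NF-kB and very large genes in ARF-104, ARF-110 and ARF-129, in order along the chromosome, each point the mean of a gene's own probes. Proximal genes such as Met stand above 0 in ARF-104, and Cntn4, Grm7 and Sox5 stand below 0 in ARF-129.

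The mean log2 ratio of every bin and gene over the 5 tumours was tested against 0 with limma across all autosomes, a test that takes no account of spread in the reference DNA. By limma no chromosome 6 bin of 137 passed an adjusted p of 0.05 in either direction (23 higher and 0 lower at an unadjusted p under 0.05), where 3.90% of all bins passed as higher and 0.642% as lower. Of 1140 chromosome 6 genes tested by limma, 136 passed as higher and 27 as lower, against 8.09% and 6.62% of all genes tested, with a median log2 ratio of 0.08. The chromosome had been chosen for its mean, so nothing is read from these counts. All of them were lost when the scan day shared by ARF-104, ARF-112 and ARF-129 was entered as a random block (0 higher and 0 lower, 187 and 51 at an unadjusted p under 0.05). Those tumours also shared the denser design and version 9.1.3.1 of Feature Extraction, so scan day cannot be told apart from these. The gene calls were also lost when segment means took the place of the genes' own probes (0 and 0, 304 and 0 unadjusted). None passed without ARF-104, without ARF-112 or without ARF-129, and none of the 20074 genes of all autosomes passed then either. Over all autosomes, 3 genes passed as higher and 3 as lower with the block, and 678 and 0 with segment means. The loss of calls was thus not particular to chromosome 6. Of the lists, growth and cancer had 2 higher and 1 lower of 32 tested (median 0.02), and TNF and NF-kB (8 tested, median 0.06), very large genes (13, median 0.03) and natural killer receptors (18, median 0.02) had none in either direction.

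The genes of these lists that passed by limma did not lie in one called stretch. Pot1a, a telomere-binding gene in the gain of ARF-104, read 0.72 in ARF-104, 0.36 in ARF-129, 0.31 in ARF-110, 0.46 in ARF-128 and 0.18 in ARF-112. With offsets removed it read 0.61, 0.05, 0.33, 0.17 and -0.04, and its value on the sparser array of ARF-128 was 0.04. Ptpn6, a phosphatase that dampens signals in blood cells, read 0.31, 0.50, 0.26, 0.38 and 0.39, although its segment in ARF-129 was lost. Bhlhe40, a transcription repressor gene of the daily clock, read -0.43, -1.03, -0.27, -0.31 and -0.53. With offsets removed Ptpn6 read -0.13, 0.13, 0.23, -0.24 and -0.12, and Bhlhe40 read 0.07, -0.42, -0.00, 0.35 and -0.04, so that neither kept 1 sign over the tumours.

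Of 142 genes with 3 or more probes in every tumour, 19 had the same sign in all 5, and each of the 19 was higher. The same count over all autosomes was not made. The chromosome had been chosen by its ratios, so nothing is read from this count. The 5 highest of the 19 were Hdac11, Mturn, Ankrd53, Snx10 and Gimap7, with means of 0.59, 0.49, 0.48, 0.42 and 0.41. Mturn read 0.67 in ARF-104, 0.55 in ARF-129, 0.31 in ARF-110, 0.53 in ARF-128 and 0.37 in ARF-112. Hdac11, a histone deacetylase gene, read 0.41, 1.03, 0.43, 0.64 and 0.44 in that order. With offsets removed Mturn read 0.42, 0.15, 0.29, 0.12 and 0.08, highest in ARF-104, which has a gain there. Hdac11 then read -0.08, 0.50, 0.25, -0.06 and -0.10, so that ARF-129 and ARF-110 alone stayed above 0. The mean of Gimap7 rested on ARF-128, as Gimap7 read 0.40, 0.20, 0.33, 1.12 and 0.01, with 0.21 on the sparser array of ARF-128, and its mean over the other 4 tumours was 0.24. The least raised of the 19 were Itpr2, Serbp1, AK138971, Ahcyl2 and AK049248, with means of 0.16 to 0.21.

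The natural killer receptor cluster spanned chr6:128632620-131319530, with 274 probes on the denser and 70 on the sparser design, and 36 of 67 listed genes were named on a probe, 29 of them as its first name, including Klrg1, which lies apart and nearer the centromere. All 29 lay in the loss of ARF-129, which held 466 of 1431 chromosome 6 names, and none in a called segment of the others. The mean over the cluster was -0.03 in ARF-104, -0.47 in ARF-129, 0.16 in ARF-110, 0.02 in ARF-128 and -0.01 in ARF-112. The flanks, up to 2 Mb on either side with 423 probes, read -0.03, -0.46, 0.16, -0.06 and -0.02. The cluster minus its flanks was 0.02 ± 0.04 (SD, n = 5), so it followed the chromosome around it in each tumour.

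The blocks of the cluster were also close to their flanks, with a few departures. The Klrb1 and Clec2 block, which pairs receptors with their ligands, departed by -0.00 in ARF-104, 0.01 in ARF-129, 0.03 in ARF-110, -0.05 in ARF-128 and 0.04 in ARF-112. The Clec and Olr1 block, of lectin-like receptors of myeloid and vascular cells, departed by 0.03, 0.05, -0.05, -0.07 and 0.04. The block of Klrd1, Klrk1 and the Klrc genes, which encode the CD94 and NKG2 chains, departed by -0.16 ± 0.08 (SE over probes) in ARF-104, -0.16 ± 0.10 in ARF-129, -0.02 in ARF-110, 0.10 ± 0.13 in ARF-128 and -0.03 in ARF-112. With offsets removed its departures were -0.08, -0.04, -0.02, 0.24 and 0.11 in the same order, smaller in ARF-104 and ARF-129 and larger in ARF-128 and ARF-112.

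The Klra block, chr6:129860303-131319530, held 93 denser-design probes, of which the sparser design has 10. Its mean was -0.01 in ARF-104, -0.46 in ARF-129, 0.18 in ARF-110, 0.13 in ARF-128 and -0.03 in ARF-112. Against the flanks it departed by 0.02 in ARF-104, -0.00 in ARF-129, 0.02 in ARF-110, 0.19 ± 0.09 (SE over probes) in ARF-128 and -0.01 in ARF-112, a mean of 0.04 ± 0.08 (SD, n = 5). ARF-128 stood apart from the others. Its sparser array read 0.09 ± 0.11 (SE) over 10 probes, while the denser array read 0.51 over the probes that both designs share. The 2 arrays thus differed by more than the departure itself.

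Single genes of the cluster scattered more than the blocks. Cd69, an early activation marker of lymphocytes, read -0.47 in ARF-104, -1.07 in ARF-129, 0.20 in ARF-110, -0.71 in ARF-128 and -0.53 in ARF-112 on 4 probes. With offsets removed Cd69 read 0.04, -0.42, 0.28, -0.01 and -0.01 in that order, so that ARF-129 alone was low and at the level of its segment. Klrb1a, an NK receptor gene at the proximal end of the cluster, read 0.25 in ARF-104, -0.08 in ARF-129, 0.27 in ARF-110, 0.48 in ARF-128 and 0.31 in ARF-112, and with offsets removed 0.06, -0.37, 0.27, 0.16 and 0.08. Klrd1, the shared chain of NKG2 receptors, read -0.20, -0.69, 0.19, -0.28 and -0.12 on 2 probes, and 0.36 on the sparser array of ARF-128.

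Among the Klra genes, Klra17 at the proximal end of the block read 0.43 in ARF-104, -0.04 in ARF-129, 0.15 in ARF-110, 0.22 in ARF-128 and 0.08 in ARF-112. With offsets removed it read 0.32 in ARF-104, -0.30 in ARF-129, 0.20 in ARF-110, -0.11 in ARF-128 and -0.25 in ARF-112, so ARF-104 was highest on both scales. Klra2, at the distal end, read 0.33, -0.17, 0.30, 0.82 and 0.35. Klra8, Klra9, Klra10 and Klra3 had 1 probe each on the denser design and none on the sparser one. The members of the family are near copies, and the name Klra1 covers 34 probes over 449 kb and the name Klrk1 covers 46 over 255 kb in the files, so values under single Klra and Klrk1 names are uncertain and may mix genes. Probes of the Klra block lay a median of 9400.5 bp apart, with the widest gap of 130245 bp between positions 130804050 and 130934296, and what lies in that gap was not measured here.

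**Figure D5:**
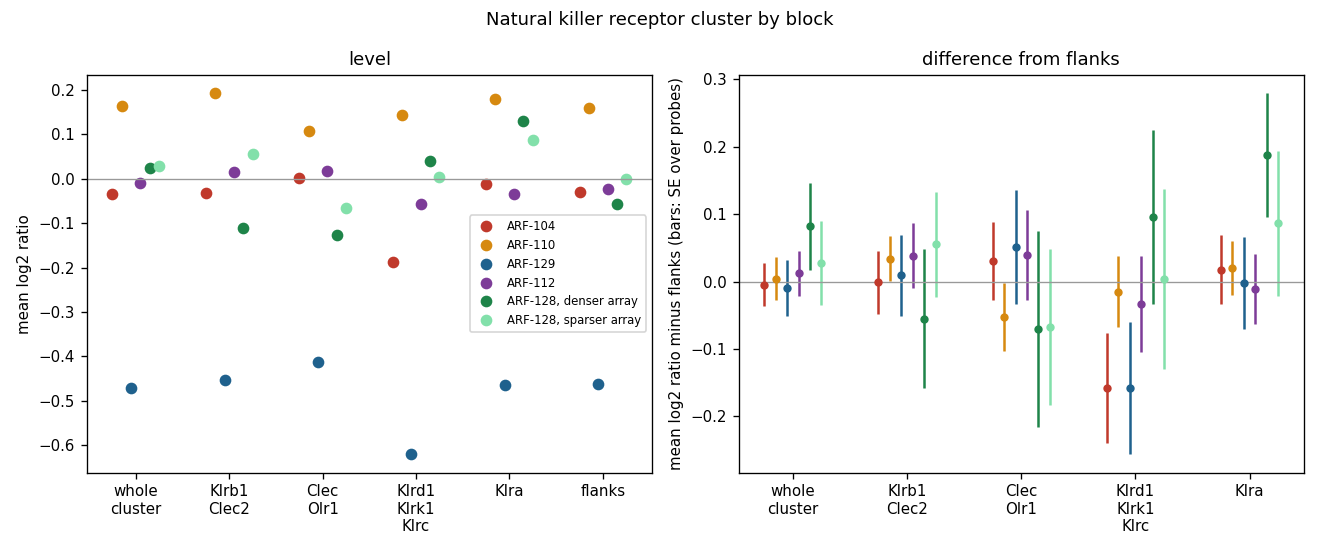
Mean log2 ratio of the natural killer receptor cluster and its blocks in each tumour (left) and the same minus the flanks (right), with bars for the standard error over probes. ARF-129 lies near -0.47 for the whole cluster on the left, and on the right the values fall close to 0 except the Klra block of ARF-128 at 0.19 and the Klrd1, Klrk1 and Klrc block of ARF-104 and ARF-129 at -0.16.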

How the data were processed

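Array comparative genomic hybridisation of 5 tumours was measured on 6 arrays. Per the file headers, the authors made the red and green processed intensity of each spot, and its log10 ratio, with Agilent Feature Extraction in version 8.5.1.1 for ARF-110 and the sparser array of ARF-128, 9.5.3.1 for the denser array of ARF-128, whose header names mm7, and 9.1.3.1 for the rest. For the other files, the sources used here give no build.

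From the deposited intensities, log2 of red over green was taken, without control and outlier spots, probes spotted more than once were averaged, and arrays were centred on the autosomal median. Segments came from PELT (penalty 5 log n, at least 5 probes, threshold 0.25), bins were 1 Mb, and a gene was the mean of its own probes. The chromosome 6 probes carried 1425 gene names. RefSeq names of GRCm38.p6, used for names only, replaced 834 through an accession, 21 through a symbol and 18 through a synonym, while 552 stayed, which gave 1431 names after updating. Bins and genes were tested against 0 with limma 3.58.1 (intercept, eBayes, Benjamini-Hochberg over all autosomes, two-sided). The methods were tested on simulated data. Tools were Python 3.11.15, numpy 2.4.6, pandas 2.3.3, numba 0.67.0, matplotlib 3.10.9 and R 4.3.3.

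The members, the gene lists and the naming rule (listed genes, genes nearest breakpoints, and the 5 highest and 5 lowest means among genes with 3 or more probes in every tumour and the same sign in all) were chosen with earlier results of these data known. The labels do not say that the tumours came from separate animals, so p-values measure the spread between these samples. Values of some listed genes are not reported here. With 5 tumours, their number sets the precision of each mean.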

Additional observations from a re-analysis of the deposited data

Results flagged for a closer look

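In groups of 5 tumours, 71 values were checked for a tumour whose gap to its nearest neighbour exceeded 0.71 of the whole range, and 6 were found. Many of these values overlap or come from segments cut from the same data. The number found is therefore not set against a chance rate. The Klra block minus its flanks was 0.19 in ARF-128 and -0.01 to 0.02 in the other tumours. The share of chromosome 6 bins called lost was 28.5% in ARF-129 and 0% in the others. Of all autosomal bins, 26.6% were called lost in ARF-129, close to its chromosome 6 share, and 1.19% to 15.1% in the others.

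The remaining 4 were genes, each apart in ARF-129. Grm7 read -0.50 there (others -0.05 to 0.12), Sox5 read -0.43 (others -0.01 to 0.11) and Klrg1, a receptor of mature natural killer cells, read -0.36 (others 0.07 to 0.22), and these 3 lie in the lost stretch. Ankrd53 read 1.06 in ARF-129 (others 0.21 to 0.44) on 3 probes outside that stretch, and 0.50 with probe offsets removed.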

How the results depend on the processing

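Of the 12 breakpoints, the number was 25 with normexp, 21 with a penalty of 3 log n, 7 on the probes that both designs share and 42 with probe offsets removed, a setting chosen after the data had been seen. The mean share of bins called gained rose from 12.4% to 41.2% at a threshold of 0.15, with ARF-129 at 67.2%. No bin was called lost under normexp, which was run with an offset of 50 and the threshold of 0.25. By limma, 1 bin was higher with the sparser array of ARF-128 and 1 with the mean of its arrays, 2 were higher and 2 lower on shared probes, and 3 were higher with the scan day as a block. Of all 2179 autosomal bins, 124, 93, 88 and 118 were higher in the same order of settings, and 204 were lower on shared probes. Genes higher numbered 219 with the sparser array, 218 with both arrays, and 0 with segment means or the block. Over all autosomes they numbered 2974 of 20072, 2926 of 20071, and 678 and 3 of 20074. Genes lower numbered 5 with normexp, 48 with the sparser array, 60 with both arrays, 67 on shared probes, and 0 with segment means or the block. Over all autosomes they numbered 472 of 20074, 2236 of 20072, 2524 of 20071, 2338 of 20070, and 0 and 3 of 20074. The cause of these differences was not tested.

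Leaving out each tumour in turn, genes higher ranged from 0 to 188 and genes lower from 0 to 80. Both were 0 when ARF-104, when ARF-112 or when ARF-129 was left out, as they were over all autosomes. The 188 (without ARF-128) stood beside 2295 of 20074 genes over all autosomes, and the 80 (without ARF-110) beside 1999. Breakpoints ranged from 8 to 12, bins gained from 5.11% to 15.5%, bins lost from 0% to 7.12%, and the chromosome mean from 0.04 to 0.10. On the probes that both designs share, the chromosome mean was 0.02. The mean over the natural killer cluster, -0.07, was 0.04 under normexp and ranged from -0.12 to 0.04 without 1 tumour, highest without ARF-129, the Klra block mean from -0.10 to 0.07, and that block minus its flanks from 0.01 to 0.06. The mean of both ARF-128 arrays does not apply to segments. No paired analysis was possible because the tumours form 1 group. The denser array of ARF-128 had the lowest signal over background (4.15) and the highest probe noise (0.776) of the 6 arrays, and what this limits was not tested.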
